A study of Mus musculus with 2 samples.

Results

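Fibroblasts were taken from a single pool of stromal vascular cells of epididymal fat, the non-adipocyte cells released by digestion of that depot. The pool came from male WT and Mincle KO mice on a C57BL/6J background after 15 weeks of high-fat diet, so every cell shares the diet, the depot, the sex and the strain. Suspensions were stained with hashtag antibodies before pooling, and 20000 cells were loaded on a BD Rhapsody capture and amplified by TAS-Seq into 1 transcript and 1 hashtag library. No label ties a hashtag to a genotype or gives the number of mice behind it, and no genotype is named for a hashtag here.

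A fibroblast was a cell with a Pdgfra count, at least 20 counts per 10000 (CP10k) of Dcn and Lum together, under 10 CP10k of Cd68, C1qa and C1qb together, and fewer than 2 of the endothelial genes Cdh5, Kdr and Cldn5. The gate held 3293 of the 15374 cells that the authors had named with a hashtag (21.4%), among 15741 cells in the transcript table. Of these fibroblasts, 849 carried the name A0309, 937 A0310, 768 A0311 and 739 A0312. Near the limits on levels, 3 cells had 20 to 25 CP10k of Dcn and Lum and 4 cells 15 to 20 CP10k, while 56 cells had 5 to 10 CP10k of the macrophage genes and 39 cells 10 to 15 CP10k. Of the members, 468 had a count of 1 endothelial gene, 103 cells were outside only by 2 or more of these genes, and 169 only by having no Pdgfra count. Counts were summed over the fibroblasts of each hashtag and scaled to CPM (counts per 1000000). The summed counts were 32769625, 36289438, 31508293 and 27501918. The median cell had 36234, 35721, 37946.5 and 35049 counts.

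The comparison set A0309 and A0310 against A0311 and A0312. These sides were chosen by measured Clec4e over all cells of each hashtag, which was 10.1 CPM for A0309, 12.8 for A0310, 0.591 for A0311 and 0.677 for A0312. They are called the Clec4e-high and the Clec4e-low side, with 2 sums each. Because the sides came from the data and 2 unlabelled sums stand on each, no test was run and no p-value is given. A gene was called only where the lower sum of one side lay at least 1.5-fold above the higher sum of the other, on the log2(CPM + 1) scale, among genes with a mean of at least 10 CPM on a side. A difference is the mean log2(CPM + 1) of the high side minus that of the low side.

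Clec4e encodes Mincle, a C-type lectin receptor of macrophages and other myeloid cells that binds microbial glycolipids and ligands released by dying cells. Pdgfra-positive fibroblasts of fat make the collagenous matrix of the depot, include the precursors of adipocytes, and respond to cytokines from macrophages. In obesity, macrophages gather around dying adipocytes and the matrix around them thickens. Dpp4-positive and Pi16-positive fibroblasts are regarded as early progenitors, and cells with more Pparg, Fabp4 and Cd36 as preadipocytes.

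The gated cells carried the fibroblast markers. Col1a1, a chain of type I collagen, was counted in 99.8% to 100% of the cells of each hashtag, and Dpt, a matrix protein of fibroblasts, in 98.5% to 99.7%. Pdgfrb was counted in 78.7% of the A0309 fibroblasts, 82.6% of A0310, 84.6% of A0311 and 82.4% of A0312. Summed over the 8 fibroblast markers, the level was 43140, 44483, 46074 and 43368 CPM, against 49.6 to 57.2 CPM in macrophages. All cells of the transcript table were also in the hashtag table.

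The hashtag evidence behind the names was weak for fibroblasts. Their median number of hashtag counts per cell was 35 for A0309, 32 for A0310, 38 for A0311 and 40 for A0312, while macrophages of the same hashtags had medians of 1720, 1076, 1058 and 1620.5. Under 50 hashtag counts were found in 2208 fibroblasts (67.1%). The hashtag in the cell's name made up a median of 52.5%, 42.9%, 49.6% and 69.8% of the counts of a fibroblast, and 95.8%, 93.3%, 93.9% and 96.9% of those of a macrophage. It was not the most frequent hashtag of the cell in 16.4% of fibroblasts, and was the most frequent in 85.3% of A0309, 69.6% of A0310, 82.9% of A0311 and 100% of A0312.

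The most frequent hashtag held a median of 52.4% of the counts in fibroblasts with 10 to 99 hashtag counts. In the 218457 barcodes outside the transcript table with as many counts it held 60.0%. Those fibroblasts had a median of 32 hashtag counts and those barcodes 16, and a share from few counts is less exact. To what extent the hashtag names separate the fibroblasts of different suspensions was not tested, and every comparison below carries this limit.

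**Figure D1:**
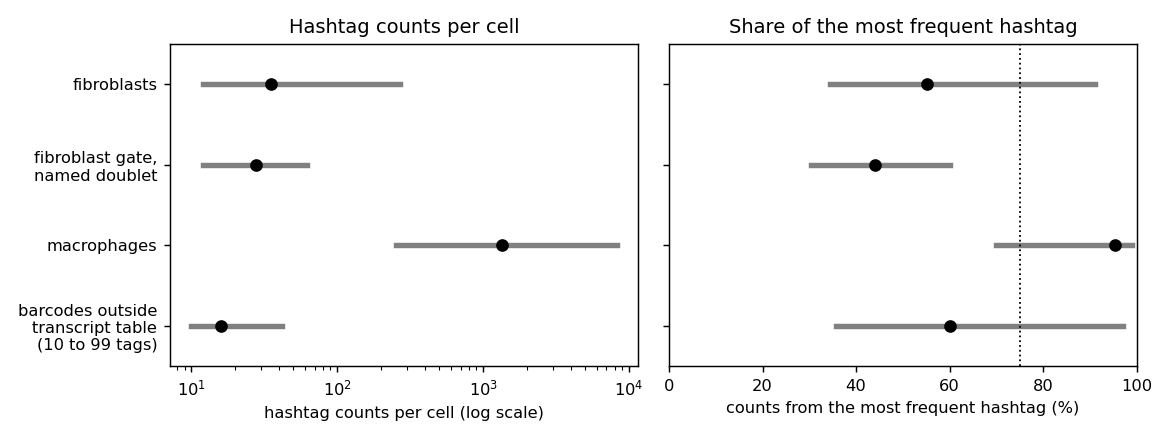
Hashtag counts per cell on a log scale (left) and the percent of them from the most frequent hashtag (right), for 4 classes of barcodes. Points are medians, grey bars run from the 5th to the 95th percentile, and the dotted line marks 75%. Fibroblasts have a median of 35 counts and 55.2%, macrophages 1342 counts and 95.3%.

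Clec4e itself was close to nothing in fibroblasts. It had 11 counts for A0309 (0.336 CPM, exact Poisson 95% interval 0.168 to 0.601), 31 for A0310 (0.854 CPM, 0.580 to 1.21), 8 for A0311 (0.254 CPM, 0.110 to 0.500) and 2 for A0312 (0.0727 CPM, 0.00881 to 0.263). Macrophages had 11.6, 16.0, 0.694 and 0.551 CPM in the same order. The intervals cover counting error only. Clec4e was counted in 0.707%, 1.17%, 0.911% and 0.271% of fibroblasts, at median depths of 35049 to 37946.5 counts, and in 10.0%, 12.9%, 1.15% and 1.15% of macrophages, at 37759.5 to 41111 counts. The gene lies on chromosome 6, at 123281789 to 123289870 of GRCm38 on the minus strand.

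Over all fibroblasts, few genes were called. Of 9365 genes measured above the limit, 0 were called higher on the Clec4e-high side (0%) and 2 were called lower (0.0214%), and none reached 2-fold between the nearest sums. The median size of a difference was 0.060 on the log2 scale, the 95th percentile 0.216 and the 99th percentile 0.339. The median distance between the 2 sums of the same side was 0.094 on the high side and 0.085 on the low side. A mean difference of 1.5-fold or more was found for 18 genes. The sides did not overlap for 1522 genes higher on the high side (16.3%) and 1401 genes lower (15%). Without A0309, A0310, A0311 or A0312 in turn, which leaves 1 sum on a side, the rule called 5, 11, 5 and 3 genes higher and 6, 11, 16 and 9 lower.

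**Figure D2:**
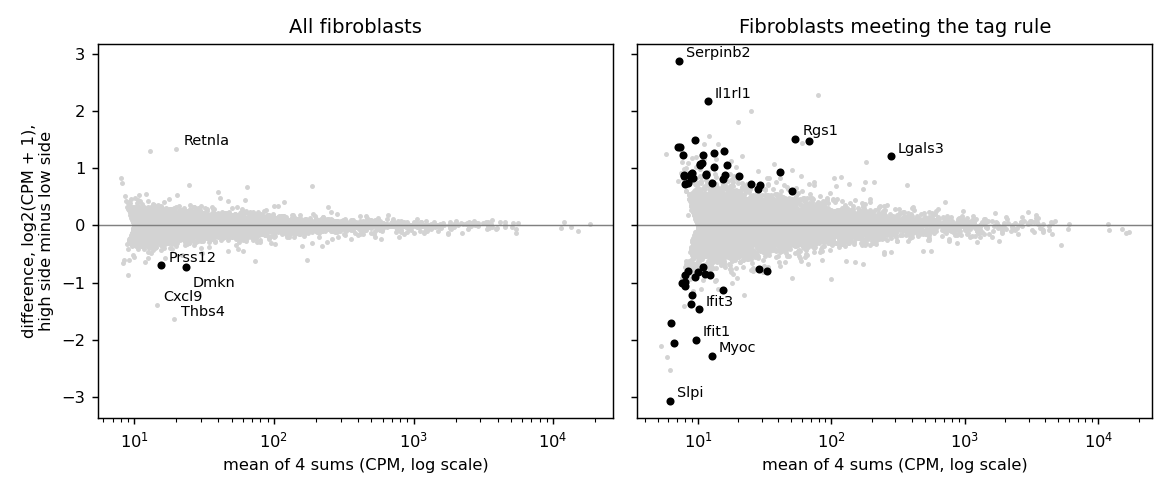
Difference between the sides on the log2(CPM + 1) scale against the mean of the 4 sums in CPM (log axis), 1 point per gene, for all fibroblasts (left) and for those that meet the tag rule (right). Black points passed the 1.5-fold rule: 2 genes of 9365 on the left, 57 of 9587 on the right.

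Both called genes were lower on the Clec4e-high side. Dmkn, on chromosome 7 at 30763756 to 30781063, encodes dermokine, a secreted protein best known from epidermis. It was at 16.5 CPM for A0309, 18.0 for A0310, 28.5 for A0311 and 30.2 for A0312, a difference of -0.73. Counts came from 64 to 79 cells of each hashtag, and no cell gave more than 7.20% of them. Among fibroblasts without the progenitor genes described below the difference was -0.14, and among those with them it was -0.75.

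Prss12, on chromosome 3 at 123446913 to 123506597, encodes the secreted serine protease neurotrypsin. It was at 10.9 CPM for A0309, 12.5 for A0310, 19.6 for A0311 and 19.5 for A0312, a difference of -0.70. It lies under the level of 20 CPM set for naming and is named, after its values were seen, because only 2 genes were called. Both genes separated the sides by more than the sums of a side differed.

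Genes with a larger mean difference than these were not called, because their nearest sums differed by less than 1.5-fold. They were picked after their values were seen. Thbs4, a matricellular protein, was at 9.67, 6.06, 46.3 and 14.5 CPM from A0309 to A0312. Cxcl9, a chemokine induced by interferon gamma, was at 6.07, 7.58, 11.4 and 32.7 CPM. In A0312, 39.5% of the Cxcl9 counts came from 1 cell. Retnla was at 12.1, 49.5, 8.85 and 9.53 CPM. In each of these genes 1 hashtag stood above the other 3, A0311 for Thbs4, A0312 for Cxcl9 and A0310 for Retnla.

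The gene lists described fibroblast function in 25 groups with 382 genes in the table, of which 321 were measured above the limit. None of the 321 was called in either direction, where 0% of all genes were called higher and 0.0214% lower. With so few calls over all genes, a list without a call, here and below, is not a result about that list. The list medians ran from -0.17 for interferon-induced genes to 0.13 for the cell cycle list. The median over all genes measured was 0.0043.

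**Figure D3:**
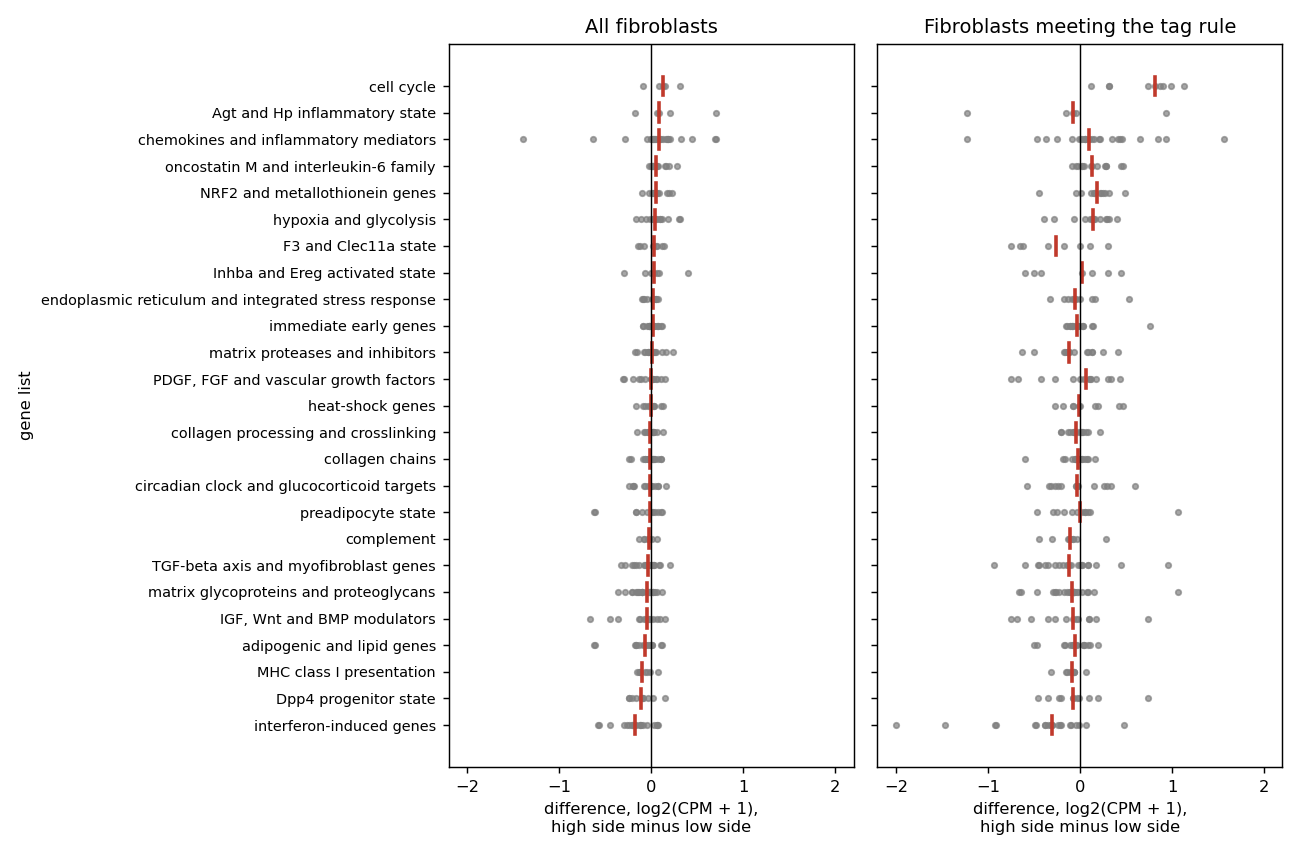
Differences between the sides (log2(CPM + 1), high side minus low side) of the measured genes of 25 lists, for all fibroblasts (left) and for those that meet the tag rule (right). Grey points are genes and red bars list medians, ordered by the medians on the left, where the medians lie between -0.17 and 0.13.

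No matrix gene passed the rule. All 17 collagen chains were measured and none was called, against 0% of all genes higher and 0.0214% lower. Their median difference was -0.0091, and the range ran from -0.24 for Col8a1 to 0.11 for Col5a3. Col3a1, a chain of the fibrillar type III collagen, was at 13341, 13308, 14893 and 12479 CPM in A0309, A0310, A0311 and A0312. Low values of Col3a1 had been set to 0 before deposit. Of the 2 sums on the low side, 1 lay above and 1 below both sums of the high side.

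The 25 matrix glycoproteins and proteoglycans had a median of -0.045. Of these, 6 did not overlap between the sides and were lower on the Clec4e-high side, against 15% of all genes, and 0 were higher. Mfap4, a microfibril-associated glycoprotein, had the largest size, with 119, 162, 185 and 172 CPM and a difference of -0.36. Sparc, a collagen-binding matrix protein, was at 15121, 13868, 16789 and 14305 CPM, and its sides overlapped.

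Enzymes that fold and crosslink collagen held no call. The 16 genes of that list had a median of -0.0084 and none without overlap, against 16.3% of all genes higher and 15% lower. Lox, the crosslinking enzyme lysyl oxidase, was at 342, 265, 358 and 311.4 CPM. Serpinh1, the collagen chaperone HSP47, was at 2147, 1961, 2084 and 1920 CPM. For both, A0309 and A0311 had the higher values and A0310 and A0312 the lower, which is not the division into sides.

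The 16 measured proteases and inhibitors had a median of 0.0067, with 2 higher and 3 lower on the Clec4e-high side without overlap. Timp2, an inhibitor of matrix metalloproteinases, was at 4410, 4521, 4332 and 4737 CPM. The 22 genes of the TGF-beta axis, with the myofibroblast genes, had a median of -0.035, with 2 higher and 2 lower without overlap. Over all genes the shares without overlap were 16.3% higher and 15% lower. Acta2, the smooth muscle actin of myofibroblasts, was at 22.2, 24.2, 31.4 and 14.9 CPM. Low values of Acta2 had been set to 0 before deposit, and it was counted in 18 to 36 cells of a hashtag. Ltbp4, which holds latent TGF-beta in the matrix, differed by 0.00047. No gene of either list was called.

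Receptors and signal carriers of the oncostatin M and interleukin-6 family had a median of 0.054 over 14 measured genes. Of these, 4 did not overlap and were higher on the Clec4e-high side, against 16.3% of all genes, and 0 were lower. Osmr, the oncostatin M receptor chain, was at 139, 154, 133 and 131 CPM. Il6st, the shared receptor chain gp130, was at 300.5, 316, 308.2 and 306.9 CPM. Socs3, the feedback inhibitor induced by this family, was at 1068, 1223, 1011 and 1198 CPM. The Socs3 values of A0310 and A0312 were the higher ones, so the sides overlapped.

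Chemokines and other inflammatory mediators had a median of 0.086 over 25 measured genes. The sides did not overlap for 7 genes higher and 2 genes lower on the Clec4e-high side, against 16.3% and 15% of all genes. Ccl2, the main attractant of monocytes, was at 276, 187, 163 and 121 CPM, a difference of 0.69. Its nearest sums differed by 0.19 on the log2 scale, under the limit for a call, and A0309 stood apart. Ccl11, the eosinophil attractant eotaxin, was at 734, 659, 575 and 650 CPM. Saa3, an acute-phase protein, was at 19.99, 39.2, 30.7 and 9.05 CPM, and its sides overlapped.

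Interferon-induced genes had the lowest median of all lists, -0.17 over 20 measured genes. None was called. The sides did not overlap for 8 of the 20, all lower on the Clec4e-high side, against 15% of all genes. They included Irf9, Ifit1, Ifit2, Ifit3, Gbp3, Iigp1 and Xaf1. Ifit1, which binds viral RNA, was at 9.86, 16.9, 17.6 and 22.0 CPM, a difference of -0.57. Ifit3 was at 7.96, 11.9, 12.8 and 17.7 CPM, a difference of -0.58. Its mean on the Clec4e-high side was 9.92 CPM, so it passed the limit on low values only through the Clec4e-low side. The list median and the 8 genes without overlap take it in. For Ifit1 and Ifit3, A0310 and A0311 lay next to each other, and A0309 was low and A0312 high. Irf1 was at 101, 116, 100.01 and 113 CPM, a difference of 0.029.

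Macrophages of the same hashtags had a median of -0.36 over 17 measured genes of the interferon list. There, 15 of the 17 did not overlap and were lower on the Clec4e-high side, against 22.8% of all genes in macrophages, and 0 were higher, against 14.9%. Macrophages were cells with at least 10 CP10k of Cd68, C1qa and C1qb, no Pdgfra count and under 20 CP10k of Dcn and Lum, a gate added after the data were seen. The whole macrophage marker list of 15 genes summed to 2868, 3714, 3125 and 3298 CPM in the fibroblasts, with no gene of it at 0, and to 38743 to 41873 CPM in macrophages. The part of macrophage RNA in the fibroblast values was not tested.

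The upstream windows of Ifit1 and Ifit3 are shown because these genes had the largest differences on the interferon list. Each is 100 bases from the RefSeq table of GRCm38.p6, on the plus strand, with capitals at the motif GAAANNGAAA or its reverse complement TTTCNNTTTC, the core of the interferon-stimulated response element.
Ifit1, chr19:34640765-34640864: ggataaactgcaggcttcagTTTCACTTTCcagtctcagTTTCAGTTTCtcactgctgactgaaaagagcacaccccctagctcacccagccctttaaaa
Ifit3, chr19:34583353-34583452: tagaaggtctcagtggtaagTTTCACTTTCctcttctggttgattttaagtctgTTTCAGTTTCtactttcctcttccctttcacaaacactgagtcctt

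Both windows hold the motif 2 times, beginning 104 and 85 bases before the start of Ifit1 and 156 and 122 bases before that of Ifit3. Of the 28 genes on the interferon list, 22 matched a promoter window, which spans 250 bases before to 50 after the start. The motif was present on either strand in 11 of the 26 windows of these genes (42.3%) and in 3.44% of all 32851 windows. Ifit1 and Ifit3 have close paralogs beside them on chromosome 19, and how reads shared by paralogs were counted was not given in the sources used here.

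Antigen presentation by MHC class I had a median of -0.095 over 8 measured genes. B2m, the invariant chain, was at 1665, 1719, 1709 and 2021 CPM, so A0312 alone was higher. The 9 measured complement genes had a median of -0.023, and C3, the central component, was at 4452, 4746, 4276 and 4547 CPM. Neither list had a called gene.

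Adipogenic and lipid genes had a median of -0.062 over 16 measured genes, with 4 that did not overlap, all lower on the Clec4e-high side, against 15% of all genes. Cd36, a fatty acid transporter, was at 51.1, 64.7, 88.5 and 89.4 CPM, a difference of -0.62, and its nearest sums differed by 0.45 on the log2 scale, under the 1.5-fold limit. Fabp4, a fatty acid carrier of adipocytes and macrophages, was at 151, 124, 218 and 202 CPM, a difference of -0.61. Lpl, the lipoprotein lipase, was at 2428, 3162, 2678 and 2818 CPM, a difference of 0.012. Low values of Cd36, Fabp4 and Lpl had been set to 0 before deposit, and Cd36 was counted in 51 to 83 cells of a hashtag. Cd36, Fabp4 and Lpl are also expressed by macrophages of fat, and Cd36 and Fabp4 by adipocytes. The 6 adipocyte markers summed to 11.8, 13.2, 18.2 and 28.9 CPM, with none at 0, and Plin1, which coats lipid droplets, was at 11.6, 11.3, 12.1 and 14.7 CPM. The part of these cells in the values was not tested.

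No gene of the stress and dissociation lists was called. Fos, an immediate early gene, was at 4746, 5324, 4885 and 5342 CPM, with A0310 and A0312 higher. The immediate early list had a median of 0.019 over 17 genes, the heat-shock list 0.0030 over 10, and the list of endoplasmic reticulum and integrated stress response genes 0.022 over 11. Hypoxia and glycolysis genes had a median of 0.045 over 16, of which 5 did not overlap and were higher on the Clec4e-high side and 1 lower. NRF2 and metallothionein genes had a median of 0.053 over 12, of which 4 were higher without overlap and 0 lower. Over all genes these shares were 16.3% and 15%. Only 5 of the 14 cell cycle genes passed the limit on low values, with a median of 0.13, and Pcna, a DNA replication clamp, was at 71.4, 60.8, 66.1 and 74.5 CPM.

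The counting intervals of the 4 hashtags' progenitor shares overlapped. At least 2 of Dpp4, Pi16 and Sema3c were counted in 39.9% of A0309 (exact binomial 95% interval 36.6 to 43.3), 36.0% of A0310 (32.9 to 39.1), 39.8% of A0311 (36.4 to 43.4) and 37.8% of A0312 (34.2 to 41.4). In macrophages the share was 0.135% to 0.286%. After each cell was thinned to 10000 counts, which left out 9 to 20 fibroblasts a hashtag, the shares were 32.4%, 27.9%, 32.9% and 31.3%. The 12 genes of the Dpp4 progenitor list, 11 of them measured, had a median of -0.11, with 5 that did not overlap and were lower on the Clec4e-high side, against 15% of all genes. Sema3c, a secreted guidance factor, was at 254, 225, 278 and 286 CPM.

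Other states of fibroblasts were counted by 2 of 3 genes. Cells with 2 of Pparg, Fabp4 and Lpl were 29.2%, 28.5%, 35.3% and 32.3% of the fibroblasts, and 60.4% to 65.2% of macrophages, so this count does not separate the classes. Low values of Fabp4 and Lpl had been set to 0 before deposit. Cells with 2 of F3, Clec11a and Chrdl1 were 25.3%, 30.8%, 29.8% and 25.8%, against 0.203% to 0.457% of macrophages. Cells with 2 of Agt, Rgs16 and Hp were 21.7%, 25.2%, 24.2% and 23.3%. Cells with 2 of Inhba, Ereg and Fosl1 were 5.77%, 3.95%, 5.08% and 4.06%. In the last 3 states the sides overlapped. In the first, both shares of the high side lay below both of the low side. There the intervals of A0310 (25.6 to 31.5) and A0311 (31.9 to 38.8) were apart, and those of the other pairs between the sides overlapped.

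Fibroblasts were a larger share of all cells on the Clec4e-high side by the authors' names. The shares were 25.8% (24.3 to 27.4) for A0309, 26.5% (25.04 to 28.0) for A0310, 19.7% (18.5 to 21.0) for A0311 and 15.9% (14.8 to 17.0) for A0312. The mean difference was 8.36 percentage points. Macrophages were 45.0%, 49.5%, 56.0% and 59.5%. Among cells with at least 10 hashtag counts and at least 75% of them from the hashtag in the name, the fibroblast shares were 5.88%, 5.13%, 4.44% and 6.82%, and the difference was -0.12 percentage points. That rule kept 89.8% to 97.8% of the macrophages of a hashtag and 12.6% to 37.1% of the fibroblasts.

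The comparison was repeated in the fibroblasts that met this tag rule, which were 652 of 3293 (19.8%): 134 for A0309, 118 for A0310, 126 for A0311 and 274 for A0312. Just inside the limit, 171 fibroblasts had 75% to 80% of their counts from the top hashtag, and just outside it 207 had 70% to 75%. Clec4e had 1 count in A0309, 20 counts in 4 cells of A0310 (3.599 CPM), and 0 counts in A0311 and A0312, which allows up to 0.553 and 0.290 CPM at 3 counts.

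More genes were called in this smaller set. Of 9587 genes measured, 36 were higher on the Clec4e-high side (0.376%) and 21 lower (0.219%), and 8 reached 2-fold between the nearest sums. The sides did not overlap for 19.9% of genes in the higher and 14.9% in the lower direction. With TMM scaling the calls were 25 higher and 24 lower. The median size of a difference was 0.140, and the median distance between the sums of a side was 0.197 on the high and 0.175 on the low side. With 1 hashtag left out, A0309, A0310, A0311 or A0312, the rule called 213, 223, 127 and 205 genes higher and 170, 136, 95 and 134 lower.

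Most of the higher calls were genes with higher levels in macrophages. Of the 36 genes, 24 (66.7%) were at least 2-fold higher in macrophages than in all fibroblasts, as were 1 of the 21 lower genes (4.76%) and 11.9% of all genes measured. Some of the 24, Ms4a6c among them, passed the limit on low values only through their mean on the Clec4e-high side. They were measured because that side was high, so the share of 66.7% is not a result about macrophage genes. Lgals3, the lectin galectin-3, was at 500.2, 288, 157 and 170 CPM. Rgs1, a regulator of chemokine receptor signalling in leukocytes, was at 96.1, 63.2, 21.0 and 34.0 CPM. Ccl9, a chemokine of myeloid cells, was at 104, 88.2, 57.0 and 20.1 CPM. Ms4a6c was at 22.9, 22.3, 11.4 and 6.47 CPM, C1qc at 25.7, 27.2, 16.2 and 12.3 CPM, and Syk, the kinase downstream of Mincle, at 18.2, 21.8, 11.8 and 10.2 CPM. In each of these genes both sums of the high side lay above both of the low side. In A0310, 60.5% of the Ms4a6c counts came from 1 cell. Low values of Lgals3, Rgs1, Ccl9 and C1qc had been set to 0 before deposit.

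Macrophage RNA moved with the number of hashtag counts. It was measured as the summed CP10k of Adgre1, C1qc, Csf1r, Lyz2, Mrc1, Fcer1g, Tyrobp, Cd74, Ctss and Ptprc, a list trimmed after the data were seen. Of fibroblasts with under 25 hashtag counts, 1.14% had at least 5 CP10k of it, and the share was 3.15%, 9.57%, 20.9% and 43.5% at 25 to 49, 50 to 99, 100 to under 200 and 200 or more counts. Among fibroblasts meeting the tag rule it was 19.0%, against 4.73% of the others. By hashtag it was 20.9% (14.4 to 28.8) for A0309, 27.1% (19.3 to 36.1) for A0310, 23.8% (16.7 to 32.2) for A0311 and 12.4% (8.75 to 16.9) for A0312. The macrophage marker list, with 12 of 15 genes measured, had a median of 0.71 between the sides in these cells. Over all fibroblasts, with 10 of the 15 measured, it was 0.11, so the 2 medians are over different sets of genes. In these cells 6 of the 12 were higher without overlap and 0 lower, against 19.9% and 14.9% of all genes. The 15 markers summed to 3832, 5574, 4133 and 3768 CPM there, so the sides overlapped in the sum. Other cell types' markers also differed between the tag-rule sums: the 7 mural markers summed to 140, 132, 88.7 and 62.1 CPM, the 6 markers of mast cells and granulocytes to 3.82, 3.24, 4.61 and 33.5 CPM with Cpa3 at 0, and the 7 mesothelial markers to 23.3, 25.2, 22.3 and 71.1 CPM. The part of these cell types in the calls was not tested.

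**Figure D4:**
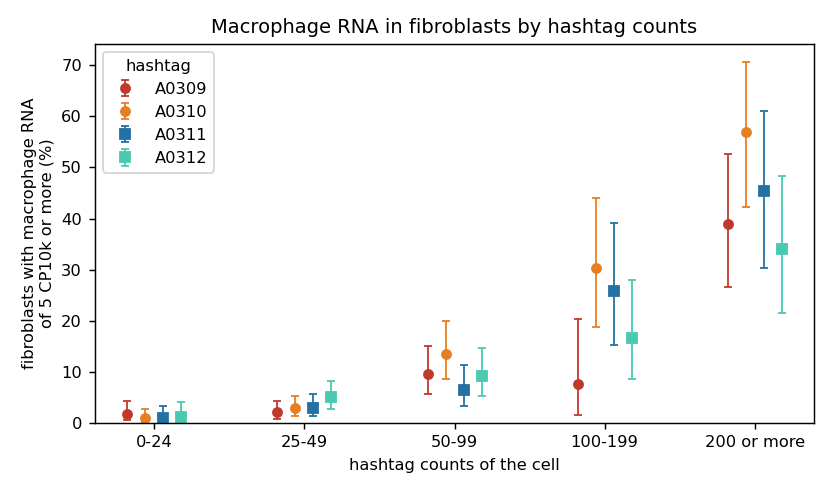
Percent of fibroblasts with at least 5 CP10k of macrophage RNA, by the number of hashtag counts of the cell, for each hashtag. Bars are exact binomial 95% intervals; over the 4 hashtags together the share goes from 1.14% to 43.5%.

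In fibroblasts that met the tag rule and had under 5 CP10k of macrophage RNA (106, 86, 96 and 240 cells), 15 genes were higher (0.158%) and 37 lower (0.391%) of 9474 measured. These shared 4 higher and 10 lower genes with the calls before the limit on macrophage RNA. Rgs1 then differed by -0.37, Ms4a6c by -0.36 and C1qc by 0.057, and none of them was called. C1qc and other genes of the macrophage list are in the sum that set this limit, so lower levels of them were in part fixed by it. Lgals3 differed by 0.37 in place of 1.21. The macrophage list, with 6 genes measured, had a median of -0.26.

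Il1rl1, the interleukin-33 receptor ST2, had the largest difference of the named higher genes. It was at 14.4, 25.7, 4.24 and 2.90 CPM in the tag-rule cells, a difference of 2.17. Il1rl1 passed the limit on low values only through its mean on the Clec4e-high side, so it was measured because that side was high. In A0309, 59.0% of the counts came from 1 cell, and in A0310 84.6%. With little macrophage RNA Il1rl1 was at 13.8, 1.28, 2.92 and 2.34 CPM, with overlapping sides. Over all fibroblasts Il1rl1 was counted in 54 to 72 cells of each hashtag and lay at 14.7, 9.81, 13.8 and 14.9 CPM, a difference of the opposite sign (-0.24) with overlapping sides. Hp, the hemoglobin-binding protein haptoglobin, was at 45.0, 65.2, 26.9 and 28.8 CPM, a difference of 0.93, and no cell gave more than 21.2% of a sum. Among progenitor cells alone the Hp difference was -0.027. With little macrophage RNA Hp was at 28.6, 82.2, 23.8 and 27.5 CPM and was not called, with A0310 standing apart. Over all fibroblasts Hp differed by 0.21 and was not called. Mrpl37, a protein of the mitochondrial ribosome, was at 21.9, 20.2, 10.7 and 11.1 CPM, a difference of 0.89, and 0.98 with little macrophage RNA. Over all fibroblasts Mrpl37 was at 16.4, 15.2, 16.9 and 15.5 CPM, a difference of -0.036 with overlapping sides.

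Of the 21 genes lower on the Clec4e-high side, 20 were not 2-fold higher in macrophages. Myoc, the secreted glycoprotein myocilin, was at 2.95, 4.50, 22.1 and 21.1 CPM, a difference of -2.28, and 60.0% of the A0311 counts came from 1 cell. Enpp1, which makes pyrophosphate from extracellular ATP, was at 21.2, 20.9, 36.7 and 36.4 CPM, a difference of -0.77. Foxo1, a transcription factor restrained by insulin signalling, was at 23.8, 24.1, 38.0 and 46.7 CPM, a difference of -0.79. Arhgef10 was at 7.81, 10.98, 21.2 and 21.9 CPM, a difference of -1.14. Myoc and Arhgef10 passed the limit on low values only through their mean on the Clec4e-low side. They were measured because that side was high. Myoc, Enpp1 and Arhgef10 were also called in the cells with little macrophage RNA, and Foxo1 was not. Over all fibroblasts none of the 4 was called. Myoc was at 10.6, 22.2, 16.5 and 19.8 CPM there, a difference of -0.22 with overlapping sides, and the differences were -0.40 for Enpp1, -0.28 for Foxo1 and -0.17 for Arhgef10.

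On the interferon list, 3 of 22 measured genes were called lower in the tag-rule cells and 0 higher, against 0.219% and 0.376% of all genes, and the list median was -0.31. Ifit1 was at 2.60, 3.96, 14.2 and 17.8 CPM, a difference of -2.00. Ifit3 was at 5.38, 4.14, 20.5 and 10.6 CPM, and Ifi47, an interferon-inducible GTPase, at 6.25, 6.30, 14.4 and 11.1 CPM. All 3 called genes passed the limit on low values only through their mean on the Clec4e-low side. They were measured because that side was high, so the share of called genes is not a result about the list. The list median and the count without overlap in the tag-rule cells take in these 3 genes and carry the same limit. Few cells carried these counts: Ifit1 was counted in 8 to 26 cells of a hashtag, and 1 cell gave 37.7% of the A0311 and 43.5% of the A0312 counts. With little macrophage RNA, Ifit1 was at 2.46, 3.57, 1.46 and 20.03 CPM, so A0312 alone was higher, and 0 of the 19 measured genes of the list were called. The list median was then -0.18, and over all fibroblasts, with 20 genes measured, -0.17. Of the 19 genes, 2 were lower without overlap and 0 higher. In all tag-rule cells 14 of the 22 were lower without overlap and 1 higher, against 14.9% and 19.9% of all genes. Over all fibroblasts 8 of the 20 were lower without overlap and 0 higher, against 15% and 16.3%. Ifit3, among those 8, was measured there only through the Clec4e-low side.

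**Figure D5:**
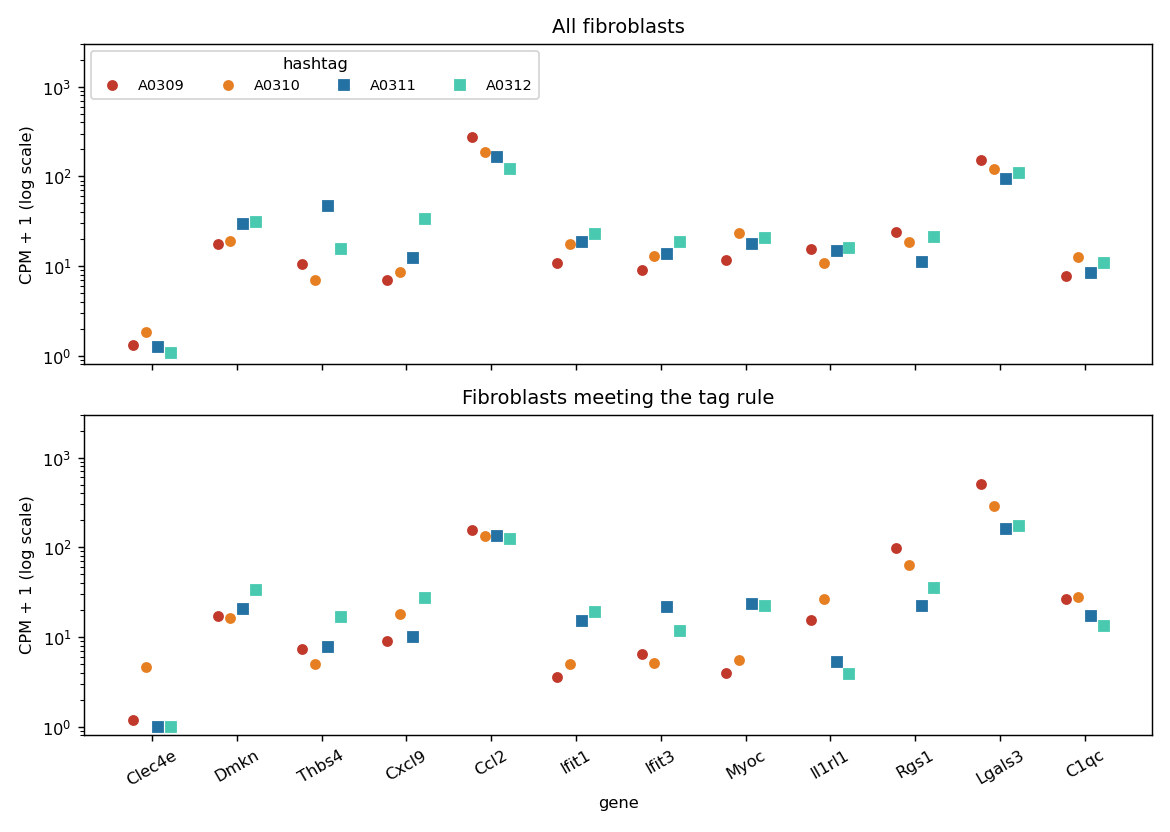
CPM + 1 on a log axis for 12 genes in the summed fibroblasts of each hashtag, all fibroblasts above and those meeting the tag rule below. Circles are the Clec4e-high and squares the Clec4e-low hashtags; Ifit1 spans 9.86 to 22.0 CPM above and 2.60 to 17.8 CPM below.

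The other lists held few calls in the tag-rule cells. Over all 326 measured genes of the 25 lists, 1 was higher (Hp) and the same 3 interferon genes were lower. Those 3 passed the limit on low values only through the Clec4e-low side. Of all genes measured, 0.376% were called higher and 0.219% lower. Collagen chains had a median of -0.020 over 17 genes with none called, and matrix glycoproteins -0.087 over 25 with none called. The TGF-beta list had a median of -0.12, and Ccn2, a target of TGF-beta and YAP signalling, was at 76.4, 58.0, 154 and 107 CPM, a difference of -0.94 that missed the limit between the nearest sums. The oncostatin M and interleukin-6 list had a median of 0.13 over 14 genes. Its Osmr values were 138, 179, 127 and 131 CPM. The cell cycle list had a median of 0.81 over the 9 of 14 genes that passed the limit on low values, with none called. With little macrophage RNA it was 0.16 over 8 genes, and over all fibroblasts 0.13 over 5. These medians are over different sets of genes, so they are not directly comparable.

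Macrophages from the same hashtags gave 8 genes higher (0.0936%) and 10 lower (0.117%) of 8544 by the same rule. Clec4e, which set the sides, is 1 of these 18. Of the other 17 genes, 8 lie on chromosome 6, which carries Clec4e, against 4.81% of the 8423 measured genes with a position. Dppa3, Apold1, Klrb1a and Mbd4, all on chromosome 6, passed the limit on low values only through the side where they were high. They were measured because that side was high, so the share on chromosome 6 is not a result about that chromosome. Fibroblasts expressed 8 of the 18 above the limit, and 0 of the 8 were called in them, against 0% of all genes higher and 0.0214% lower. The largest difference of the 8 was 0.27 in size in fibroblasts, against 0.70 to 1.26 in macrophages. Mgst1, a glutathione transferase on chromosome 6, was at 88.4, 113, 201 and 214 CPM in macrophages and at 304.9, 380, 333 and 351 CPM in fibroblasts. Apobec1, an RNA-editing enzyme close to Clec4e, was at 285, 280, 688 and 665 CPM in macrophages and at 17.6, 19.7, 18.8 and 19.7 CPM in fibroblasts. In macrophages the sides were separate for both genes, and in fibroblasts they overlapped. In fibroblasts the sides were separate, in the direction seen in macrophages, for 4 of the 8: Fam177a (25.2, 22.5, 28.6 and 29.3 CPM), its near-identical copy Fam177a2, Mbd4 (10.1, 8.76, 11.1 and 11.8 CPM) and Apaf1 (23.1, 26.01, 23.01 and 21.9 CPM). Over all fibroblast genes the sides did not overlap for 16.3% in the higher and 15% in the lower direction. The nearest Apaf1 sums differed by only 0.0073 on the log2 scale. In the tag-rule fibroblasts 9 of the 18 were measured and 0 were called, against 0.376% of all genes higher and 0.219% lower. Apobec1 was at 23.4, 27.2, 21.9 and 21.7 CPM there.

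Over all fibroblasts 0% of genes were called higher and 0.0214% lower. Within 5 Mb of Clec4e, 60 of 195 genes in the table were measured there and none was called. Their differences ran from -0.32 for C1rl to 0.31 for Tspan11, with a median of 0.011. The sides did not overlap for 18 of the 60 in the higher and 4 in the lower direction, against 16.3% and 15% of all genes. In the tag-rule cells 2 of 63 were called higher, against 0.376% of all genes, Clec4b1 and Ptpn6, both among the genes at least 2-fold higher in macrophages. Clec4b1, a neighbouring lectin gene of the same cluster, was at 15.1, 13.1, 7.74 and 2.32 CPM, and Ptpn6, the phosphatase SHP-1 of leukocytes, at 13.9, 17.8, 6.45 and 5.80 CPM. Both were picked after their values were seen. Clec4b1 and Ptpn6 passed the limit on low values only through their mean on the Clec4e-high side. They were measured because that side was high, so their share of the 63 is not a result about the genes near Clec4e.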

How the data were processed

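Transcripts and hashtags of 1 pool of cells were read in 2 libraries. The authors deposited a table of whole-number counts per gene and cell and a table of hashtag counts per barcode; the cell names carry the hashtag or the word doublet. Reads and molecules are not told apart by any source used here. The submitters' processing notes name GRCm38, R 3.6.3 and 4.1.2, Bowtie2 2.4.2 and cutadapt 3.4, with no role. In the deposited counts, 68 genes have a lowest value above 0 of 5 to 68, so their low values had been set to 0. They include Dcn, Lum, Cd68, C1qa, Col3a1, Sparc, Serpinh1, C3, Acta2, Cd36, Fabp4, Lpl and Pi16.

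Counts were summed over the gated cells of each hashtag with Python 3.11.15, numpy 2.4.6, pandas 2.3.3 and scipy 1.17.1. CPM is the sum per 1000000 counts of those cells, a pseudocount of 1 was added before the log, and the gate's genes were not compared. Nothing in the labels says that hashtags stand for separate animals, so differences between sums may be technical. Cells named doublet were left out, and no doublet caller was run. Intervals are 95% exact Poisson or exact binomial (Clopper-Pearson) and cover counting error only. Shares were also computed after thinning each cell to 10000 counts. The tag rule asks for 10 hashtag counts and 75% from the named hashtag. edgeR 4.0.16 in R 4.3.3 supplied TMM factors for 1 alternative and no test. The calling code was tested on simulated data. Coordinates are of GRCm38.

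The gate, the sides and the gene lists were chosen with earlier results of these data known. Named genes were, in each direction, the 12 called genes with the largest difference and a mean of at least 20 CPM on a side, without predicted and ribosomal genes, and from each list up to 3 called members and the uncalled member with the highest mean. Further list members, the genes with large uncalled differences, and the macrophage gate and RNA sum were chosen after their values were seen. Alternatives changed the pseudocount, the limit on low values, the scaling, the gate, the tag rule and the hashtags included. The values of 1 member of the interferon list are not reported here.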

Additional observations from a re-analysis of the deposited data

Results flagged for a closer look

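Among the 367 cells that the authors named doublet, 281 passed the fibroblast gate (76.6%, exact binomial 95% interval 71.9 to 80.8). They were drawn to attention because no comparison used them. Their median was 28 hashtag counts, against 35 in fibroblasts with a hashtag name, and their most frequent hashtag held a median of 44.1% of the counts, against 55.2%.

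The hashtag table lists 15 hashtags, and the 11 that name no cell held 5294 of 38144503 hashtag counts. These 11 are a signal outside the 4 hashtags compared.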

How the results depend on the processing

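Over all fibroblasts, the count of genes higher on the Clec4e-high side was 0, and it became 36 under the tag rule, 43 with at least 50 hashtag counts, 2 without progenitor cells, 2 in progenitor cells only and 4 where non-overlapping sides and a mean difference of 1.5-fold were enough. The count lower was 2. It was 0 with a pseudocount of 5, 7 with a limit of 1 CPM, 1 with 20 CPM, 1 with TMM, 21 under the tag rule, 43 with at least 50 hashtag counts, 5 with the stricter gate (under 2 CP10k of Cd68, C1qa and C1qb and no endothelial gene), 5 in progenitor cells only, 5 in cells not meeting the tag rule, 4 with little macrophage RNA and 9 with the looser rule. The count at 2-fold was 0, and it was 1 with a limit of 1 CPM, without progenitor cells, in cells not meeting the tag rule and with little macrophage RNA, 2 with the stricter gate, 8 under the tag rule and 12 with at least 50 hashtag counts. Leaving out 1 hashtag gave 3 to 11 higher, 6 to 16 lower and 2 to 7 at 2-fold, where a single sum on a side is easier to clear.

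In the tag-rule cells the higher count was 36. It was 11 with a pseudocount of 5, 164 with a limit of 1 CPM, 14 with 20 CPM, 22 with the stricter gate, 18 with at most 100000 counts a cell, 58 without progenitor cells, 113 in progenitor cells only, 15 with little macrophage RNA and 177 with the looser rule. The lower count was 21, and in the same order without the cap on counts it was 9, 152, 4, 37, 54, 95, 37 and 112, and 43 with at least 50 hashtag counts. The 2-fold count of 8 was 3 with a pseudocount of 5, 49 with a limit of 1 CPM, 2 with 20 CPM and 44 in progenitor cells only. Of the 36 higher genes, 5 were called with the stricter gate, 15 with the cap on counts, 12 without progenitor cells, 16 in progenitor cells only and 4 with little macrophage RNA, and of the 21 lower genes 8, 16, 9, 6 and 10. The mean over cells called 31 higher and 29 lower, of which 14 and 10 were shared. Leaving out 1 hashtag gave 127 to 223 higher, 95 to 170 lower and 44 to 86 at 2-fold.

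The fibroblast share differed by 8.36 percentage points, by -0.12 under the tag rule and by 0.63 with at least 50 hashtag counts. The progenitor share differed by -0.85, 2.07 and 2.4 points in the same order. Over all fibroblasts, none of 360 values of named genes under an alternative changed sign where the gene was called, and 28 moved beyond the spread of the sums. Only 2 genes were called there, so most of the 360 values could not count as a change of sign. In the tag-rule cells 69 of 546 moved and 6 changed sign: with the stricter gate Rgs1 to -0.29, C1qc to -0.44 and Syk to -0.57, with little macrophage RNA Rgs1 to -0.37 and Ms4a6c to -0.36, and in progenitor cells only Hp to -0.027. The cause of each change was not tested. No paired analysis was possible because the hashtags carry no replicate numbers in the labels. The looser rule has no 2-fold form and was not run there. The 118 to 274 cells behind a tag-rule sum, with 1 cell giving up to 84.6% of a named gene's counts, limit what those sums resolve.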
